A study of Homo sapiens with 2 samples.

Results

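The miR-23, miR-27 and miR-24 microRNAs (miRNAs) are made from a pair of short gene clusters, and 10 of their mature strands were examined here out of the 2565 miRNA probes on the array. The members were taken by name from the scanner output: miR-23a-3p, miR-23a-5p, miR-23b-3p, miR-23b-5p, miR-27a-3p, miR-27a-5p, miR-27b-3p, miR-27b-5p, miR-24-3p and miR-24-2-5p. The set was chosen by the signals of these same arrays, seen in earlier work, so the values below are descriptions of it. RNA came from exosomes, small vesicles shed by cells, of HuH-7, a human hepatocellular carcinoma line, in the cultures labelled HuH-7-M and HuH-7-P. The labels spell out neither M nor P, and the series title speaks of liver cancer lines that metastasise strongly within the liver. Both cultures were grown with fetal bovine serum and moved to advanced DMEM before the vesicles were pelleted by ultracentrifugation. Each group had 1 Cy5-labelled array, so differences have no replicate check, the cultures could not be tested against each other, and culture and array cannot be told apart.

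In each cluster a primary transcript is cut into 3 hairpins, and each hairpin can yield a 5p and a 3p strand. The 3p strands are the usual guide strands, which load into Argonaute and repress target mRNAs through the seed, bases 2 to 8. miR-23 is known for repressing glutaminase, miR-27 for repressing PPARG and other genes of lipid metabolism, among them in liver, and miR-24 for repressing cell cycle genes. The clusters are also well known from endothelium.

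The a cluster (MIR23A, MIR27A and MIR24-2) lies on the minus strand at chr19:13836287-13836659 of GRCh38.p14, spans 373 bases and sits within the long non-coding RNA gene MIR23AHG. The b cluster (MIR23B, MIR27B and MIR24-1) lies on the plus strand at chr9:95085208-95086088, spans 881 bases and sits within the span of the protein-coding gene AOPEP. The mature sequences, from RefSeq, show which strands a probe could confuse, with the seed in capitals:
hsa-miR-23a-3p: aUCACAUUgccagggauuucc
hsa-miR-23b-3p: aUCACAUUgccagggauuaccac
hsa-miR-27a-3p: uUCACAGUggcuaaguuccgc
hsa-miR-27b-3p: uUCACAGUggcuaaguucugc
hsa-miR-24-3p: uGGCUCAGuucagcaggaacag
hsa-miR-23a-5p: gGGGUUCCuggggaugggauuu
hsa-miR-23b-5p: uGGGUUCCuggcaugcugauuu
hsa-miR-27a-5p: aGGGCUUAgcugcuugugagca
hsa-miR-27b-5p: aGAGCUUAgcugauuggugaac
hsa-miR-24-2-5p: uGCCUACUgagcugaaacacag

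miR-27a-3p and miR-27b-3p differ by 1 base, C19U, with positions counted from 1 at the 5′ end and the a strand's base given first. miR-23a-3p and miR-23b-3p differ by U19A over the 21 bases they share, and RefSeq lists miR-23b-3p as 23 bases long. The 5p strands are less alike, with 7 differing bases between miR-23a-5p and miR-23b-5p and 8 between miR-27a-5p and miR-27b-5p. miR-24-3p is the same sequence from 2 loci, 1 in each cluster, so its probe reads both clusters at once. The sequences of the probes were not available, so binding of a probe to the strand of the other letter was not tested.

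The hairpins of miR-27 are shown because the largest difference lies there, with both mature strands in capitals and the 5p strand first:
MIR27A: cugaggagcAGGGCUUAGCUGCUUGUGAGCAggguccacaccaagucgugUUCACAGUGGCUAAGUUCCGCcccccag
MIR27B: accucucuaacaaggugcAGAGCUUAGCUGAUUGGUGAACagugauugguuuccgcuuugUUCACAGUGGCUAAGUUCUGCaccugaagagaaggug

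Signals are spot median intensities of the Cy5 channel in arbitrary units. Spots with the label BLANK read 58.72 ± 1.22 on the HuH-7-M array and 59.71 ± 1.31 on the HuH-7-P array (SD over the 320 spots after leaving out the top and bottom 5%). A miRNA was called above background over the BLANK mean plus 2 SD, a limit of 61.16 on HuH-7-M, against 62.34 on HuH-7-P. The net signal is the spot median minus that BLANK mean. Spots labelled No Probe are brighter than BLANK and gave stricter limits of 89.89 on HuH-7-M, against 86.90 on HuH-7-P.

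Markers of the cell line and of other cells were read as whole lists, beside 65.1% of all miRNA probes above the BLANK limit on each array. Of 5 hepatocyte miRNAs, 5 were above the BLANK limit on HuH-7-M, against 4 on HuH-7-P, with summed net signals of 144 on HuH-7-M, against 112 on HuH-7-P. They did not all go 1 way: miR-122-5p read 126.5 on HuH-7-M, against 99.7 on HuH-7-P, while miR-192-5p read 82.8 on HuH-7-M, against 87.5 on HuH-7-P, and miR-148a-3p was below the limit on HuH-7-P. Of 6 blood cell miRNAs, 4 were above it on each array, with sums of 51.5 on HuH-7-M, against 57.6 on HuH-7-P. Of 4 miRNAs of stroma and smooth muscle, 2 were above it on HuH-7-M, against 3 on HuH-7-P, with sums of 78.9 on HuH-7-M, against 62.2 on HuH-7-P and miR-214-3p the brightest at 120.0, against 103.7. Of 2 endothelial miRNAs, miR-126-3p and miR-126-5p, 0 were above it on either array. The samples were exosomes of HuH-7 cultures, and neither the source of these marker signals nor its part in the members' signals was tested.

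Of the 10 members, 7 were above background on the HuH-7-M array, against 6 on the HuH-7-P array. Over all miRNA probes the share was 65.1% on each, so the members were detected about as often as miRNAs at large. On both arrays 6 members were above background, here called measured, as were 62.1% of all miRNA probes: miR-24-3p, miR-23a-5p, miR-23a-3p, miR-23b-3p, miR-27a-3p and miR-24-2-5p. miR-27b-3p was above background on HuH-7-M alone, and miR-23b-5p, miR-27a-5p and miR-27b-5p on neither. Over the No Probe limit were 3 members on HuH-7-M (miR-24-3p, miR-27b-3p and miR-23a-5p) against 2 on HuH-7-P (miR-24-3p and miR-23a-5p), against 31.5% and 35.2% of all miRNA probes.

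**Figure D1:**
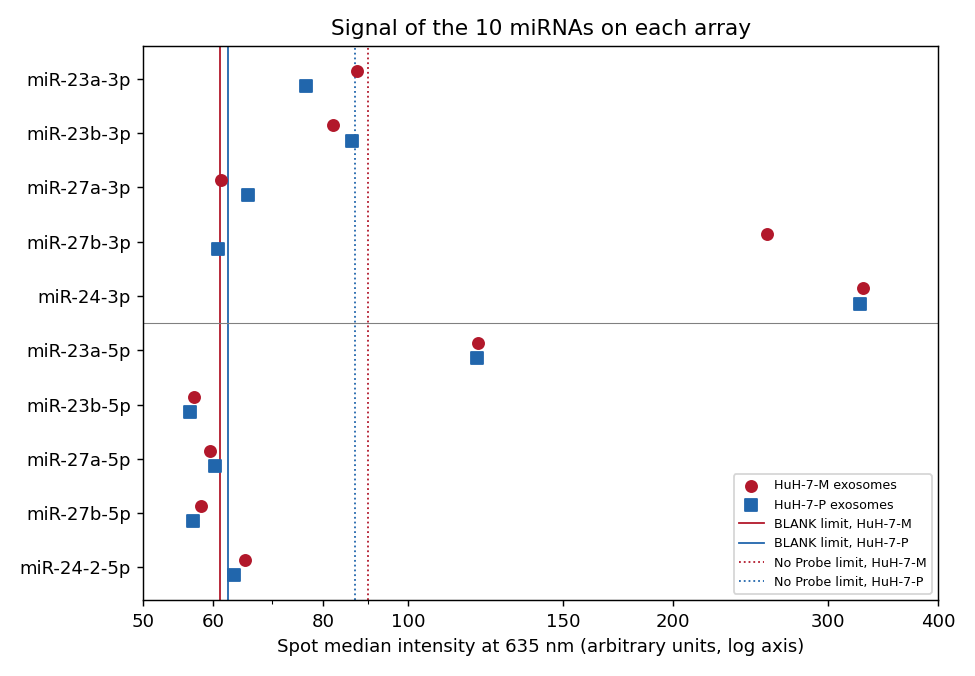
Spot median intensity (arbitrary units, log axis) of each of the 10 miRNAs on the HuH-7-M array (red circles) and the HuH-7-P array (blue squares), 1 spot per point, with 3p strands above the grey line and 5p strands below. Vertical lines are the BLANK limits (solid) and No Probe limits (dotted). miR-27b-3p reads 255.5 on HuH-7-M, against 60.71 on HuH-7-P, while the 9 other miRNAs have their points close together.

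miR-27b-3p, the guide strand of the b cluster's middle hairpin, was much brighter in HuH-7-M exosomes. Its spot median was 255.5 on HuH-7-M, against 60.71 on HuH-7-P. The HuH-7-M value lay 161 BLANK SD above the BLANK mean, and the HuH-7-P value lay 0.761 BLANK SD above it, under the limit. A fold can therefore only be bounded, by setting HuH-7-M against the dimmest miRNA that was above the limit on HuH-7-P. After normexp background correction with an offset of 50 and quantile normalization, the scale used for all normalized values here, the lower bound for miR-27b-3p was 4.69-fold, so that it was at least 4.69-fold higher on HuH-7-M. The offset pulls differences of dim probes toward 0. In net signal without offset or scaling the same bound was 74.9-fold, the HuH-7-P spot being at the level of the BLANK spots. That size rests on a divisor just over the BLANK limit. The No Probe spots on HuH-7-P all read higher, at 68.69 to 127.5, and no net bound was computed against the No Probe limit. On the normalized scale the log2 bound against that limit was 1.69.

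Few miRNAs were above the limit on HuH-7-M only, 78 of 2565 (3.04%), and about as many, 76, on HuH-7-P only. miR-27b-3p had the highest HuH-7-M signal of the 78 on HuH-7-M only, whose median was 62.65 and whose next highest, miR-1197, read 137.3. The authors' deposited table gives 165 for miR-27b-3p on HuH-7-M and leaves it blank on HuH-7-P.

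The strands nearest to miR-27b-3p in sequence and in the genome showed no such difference. miR-27a-3p, 1 base apart, read 61.22 on HuH-7-M, against 65.71 on HuH-7-P. The HuH-7-M value cleared the limit by 0.0615 units and the HuH-7-P value by 3.37 units, so miR-27a-3p was barely above background. Its net signal was 2.50 on HuH-7-M, against 5.99 on HuH-7-P, a change of -3.49 units. For the difference of 2 BLANK spots the SD was 1.79 units. That SD leaves out the top and bottom 5% of BLANK spots, so their full spread is wider. The normalized log2 difference of miR-27a-3p, taken as HuH-7-M over HuH-7-P, was -0.08.

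Without the offset the ratio of net signals was 0.418 (log2 -1.26), past 2-fold lower. In net signal 4.46% of the 1593 measured miRNAs were at least 2-fold lower and 3.33% at least 2-fold higher on HuH-7-M, against 1.69% and 0.439% on the normalized scale. The call on miR-27a-3p thus rests on a few units of intensity near background.

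The other strand of the same hairpin, miR-27b-5p, read 58.18 on HuH-7-M, against 56.89 on HuH-7-P, below the limit on both. Its a-cluster counterpart miR-27a-5p read 59.53 on HuH-7-M, against 60.23 on HuH-7-P, also below the limit on both. The 5p strands of miR-27 were thus not detectable in either vesicle sample at this signal over background.

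Spots next to miR-27b-3p on the array were nearly equal between the arrays. The 5 adjoining spots of its block read 55.15 to 120.0 on HuH-7-M, against 55.72 to 103.7 on HuH-7-P, with HuH-7-M over HuH-7-P between 0.937 and 1.16. The scanner entered the miR-27b-3p spot as OK at all 3 gains, as it did every member.

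**Figure D2:**
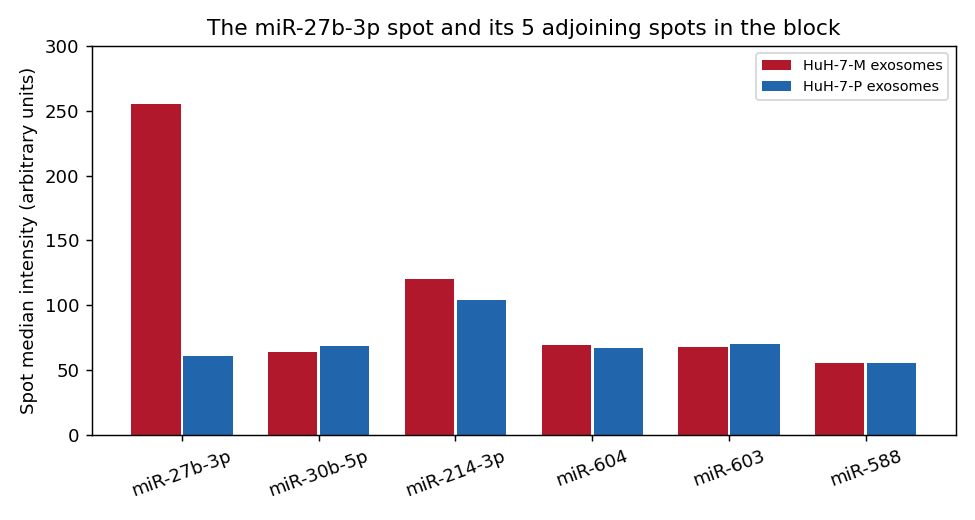
Spot median intensity (arbitrary units, axis from 0) of the miR-27b-3p spot and its 5 adjoining spots in the same block on the HuH-7-M array (red) and the HuH-7-P array (blue), 1 spot per bar and no replicate. The miR-27b-3p bar is 255.5 on HuH-7-M, against 60.71 on HuH-7-P, and the adjoining spots are within 0.937 to 1.16 of HuH-7-P.

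The miR-27b-3p value is a single spot, and single spots did stray on these arrays. Among 36 sets of 8 control spots (18 control probes on each array), 5 sets had a spot more than 1.2-fold away from the median of the other 7. The largest stray was 2.52-fold, 1 spot of S-Probe7 on HuH-7-P that read 178.4 while the other 7 had a median of 70.71. The next was 1.56-fold, for S-Probe21 on HuH-7-M. The miR-27b-3p spot differed 4.21-fold between the arrays in spot median. That is a ratio between arrays for a spot picked with its value known, so the 36 departures within an array cannot rank it. Whether it is a stray spot was not tested.

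A second column of the files, headed as a background median, was also high at this spot, at 163.6 on HuH-7-M against 59.64 on HuH-7-P. That column follows the spot itself across the array (r = 0.992 between the logarithms on each array, over all miRNA probes). It was 64.0% of the spot median for miR-27b-3p on HuH-7-M, while 131 miRNAs with HuH-7-M signals of 200 to 330 had a median of 83.2% (quartiles 74.3% and 92.7%), and 8 of them had a lower ratio. Correcting with this column, a setting chosen after seeing the data, brought the bound of miR-27b-3p to 0.10 on the log2 scale, which ends the 2-fold call. The log2 differences of the measured members then lay between -0.047 and 0.011, in place of -0.08 to 0.25. Because the column follows the spot, this setting cannot tell background from signal.

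The measured strands of miR-23, whose 3p strands share the seed UCACAUU, differed by less than 2-fold between the vesicle samples, normalized or in net signal. miR-23a-3p read 87.51 on HuH-7-M, against 76.45 on HuH-7-P, or net signals of 28.8 and 16.7. The normalized log2 difference was 0.25, and the ratio of net signals was 1.72. miR-23b-3p read 82.11 on HuH-7-M, against 86.29 on HuH-7-P, with a normalized log2 difference of -0.04 and a net ratio of 0.880. The a strand was thus brighter and the b strand dimmer on HuH-7-M.

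Control spots give a scale for the size of these differences. S-Probe2, a control of similar brightness, had SDs of 2.52 on HuH-7-M, against 2.35 on HuH-7-P over its 8 spots, and its mean was 72.28 on HuH-7-M, against 69.22 on HuH-7-P. The change of miR-23a-3p was 12.05 units of net signal and that of miR-23b-3p -3.19 units. Stray spots of 1 control probe, S-Probe7, lay further off than either change. On HuH-7-M its stray spot read 89.33, where the other 7 had a median of 71.64, beside the stray spot on HuH-7-P given above. The farthest spot of S-Probe2 on HuH-7-M read only 76.99, against a median of 71.41 for its other 7. These are departures within an array, picked with their values known, so they cannot rank a change between arrays. Control probes could also differ more between the arrays: S-Probe6 averaged 122.0 on HuH-7-M, against 82.62 on HuH-7-P. On the log2 scale with the offset, 2 spots of a control probe on 1 array differed with an SD of 0.17, a value that holds no spread between cultures or arrays.

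The 5p strands of miR-23 behaved unlike each other in level. miR-23a-5p was clearly measured and nearly equal, at 120.0 on HuH-7-M, against 119.7 on HuH-7-P (normalized log2 difference 0.00, net ratio 1.02). miR-23b-5p read 57.11 on HuH-7-M, against 56.47 on HuH-7-P, below the BLANK mean on both arrays. miR-23c, encoded on the X chromosome and sharing the 3p seed, read 60.94 on HuH-7-M, against 61.02 on HuH-7-P, under the limit on both.

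miR-24-3p was the brightest of the 10 spots and was nearly equal in the vesicles of both cultures. It read 328.7 on HuH-7-M, against 325.8 on HuH-7-P, at ranks 225 and 229 among the 2565 miRNA probes. The normalized log2 difference was 0.02 and the net ratio 1.01. S-Probe24, a control of middle brightness, read 230.4 ± 10.5 on HuH-7-M, against 235.3 ± 12.6 on HuH-7-P (SD over 8 spots of 1 array). S-Probe21, nearer to miR-24-3p in brightness, was less even, at 320.7 ± 62.2 on HuH-7-M, against 284.8 ± 16.7 on HuH-7-P. The 3.84 units of net signal between the arrays for miR-24-3p were smaller than the spread between spots of either control. Because the probe reads the product of both loci, an unequal change of the loci would not be seen in it.

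Its passenger strands separate the loci and were dim. miR-24-2-5p, from the a cluster, read 65.19 on HuH-7-M, against 63.35 on HuH-7-P (net 6.47 and 3.64, net ratio 1.78, normalized log2 difference 0.08). miR-24-1-5p, from the b cluster and not a member, read 54.73 on HuH-7-M, against 55.80 on HuH-7-P, below the limit on both. The 5p strands of miR-24 share the seed GCCUACU and differ at 6 bases.

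Neighbouring miRNA genes were dim and nearly equal as well. MIR3074 is transcribed from the opposite strand of the MIR24-1 locus, and 20 bases of miR-3074-5p are the exact reverse complement of miR-24-3p. miR-3074-5p read 62.38 on HuH-7-M, against 62.59 on HuH-7-P, just above the limit on both, and miR-3074-3p read 73.21 on HuH-7-M, against 73.54 on HuH-7-P. MIR181C and MIR181D begin 38040 bases and more beyond the end of the a cluster. There miR-181c-3p read 64.23 on HuH-7-M, against 65.78 on HuH-7-P, while miR-181c-5p and miR-181d-5p were below the limit on both arrays. miR-181d-3p, named after its values were seen and not on the list of neighbours, was measured at 80.83 on HuH-7-M, against 86.0 on HuH-7-P, with a normalized log2 difference of -0.06. Of the 7 miRNAs listed as sharing a seed or a neighbourhood with the members, 3 were measured on both arrays, none of them 2-fold different on either scale.

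On the normalized scale 0 of the 6 measured members passed 2-fold upward and 0 passed it downward in HuH-7-M exosomes, where 0.439% and 1.69% of all 1593 measured miRNAs were. Their log2 differences ran from -0.08 (miR-27a-3p) to 0.25 (miR-23a-3p). The median was 0.01, and that of all measured miRNAs was also 0.01 (quartiles -0.07 and 0.10). In net signal the members' median log2 ratio was 0.03 and that of all measured miRNAs 0.00 (quartiles -0.26 and 0.30 before any scaling). Scaling to the Spike Control spots, which were brighter on HuH-7-M by 0.59 in log2 net signal, placed the median of all measured miRNAs at -0.58, and the members' median at -0.565. The median of the 6 members thus lay close to that of all measured miRNAs on each of these scales. On the Spike Control scale the bound of miR-27b-3p remained at least 3.12-fold higher.

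**Figure D3:**
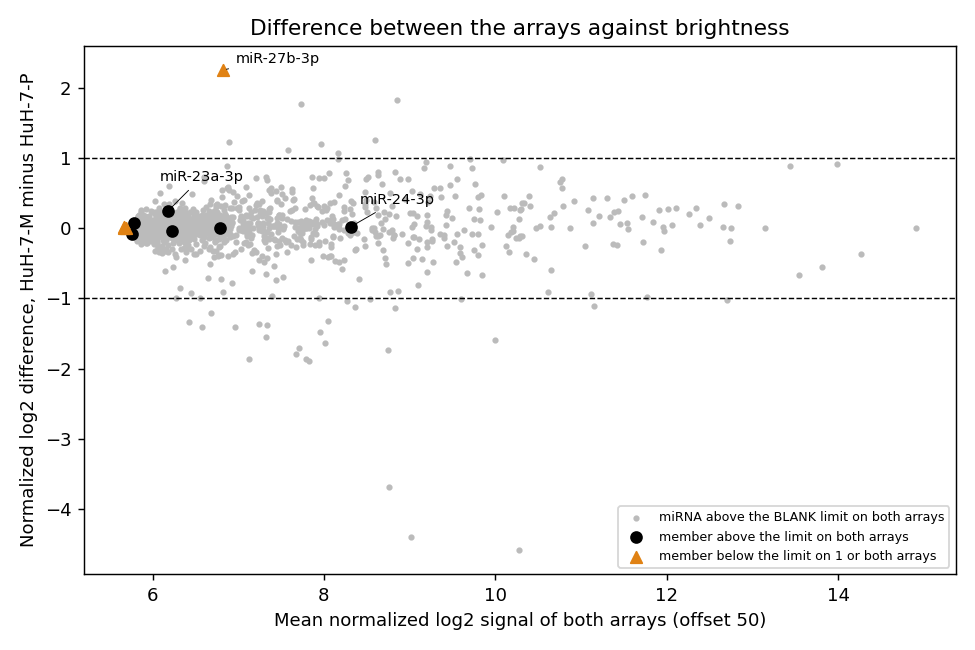
Normalized log2 ratio of HuH-7-M over HuH-7-P against the mean normalized log2 signal of both arrays (offset 50). Grey points are the miRNAs measured on both arrays, black points the 6 measured members and orange triangles the 4 members below the limit on at least 1 array, dashed lines mark 2-fold. miR-27b-3p is plotted at its computed 2.26, for which the text gives a bound, and the 6 measured members lie between -0.08 and 0.25.

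Set against each other, the clusters held the following. Of the 5 members specific to the a cluster, 4 were above background on HuH-7-M, against 4 on HuH-7-P. Of the 4 specific to the b cluster, 2 were above background on HuH-7-M (miR-23b-3p and miR-27b-3p) and 1 on HuH-7-P (miR-23b-3p). The b cluster's difference was thus that of 1 strand, miR-27b-3p. By arm, 5 of 5 members of the 3p arm were above background on HuH-7-M, against 4 of 5 on HuH-7-P, and 2 of 5 members of the 5p arm on each array. Across the array, names ending in 3p were above background in 64.3% of 883 probes on HuH-7-M, against 63.2% on HuH-7-P, and names ending in 5p in 66.2% of 866 and 67.2%.

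How unlike each other closely named strands can be was described over pairs with both strands measured on both arrays. There were 105 lettered pairs, such as an a and a b strand of the same arm. Every combination within a family was counted, so the pairs share strands. Families with many letters, such as miR-378 and miR-320, weigh more. The gap between the pair in normalized log2 difference had a median size of 0.13, and 95% of the gaps were under 0.61. The gap of miR-23b-3p against miR-23a-3p was -0.29, with 24 pairs further apart.

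miR-27b-3p was not above background on HuH-7-P, so its gap to miR-27a-3p has only a bound, and the pair is not among the 105. With miR-27b-3p at its bound, the gap was at least 2.31. The 105 pairs leave out every strand that was above the limit on only 1 array, so they cannot rank this gap. Of the 105 gaps, 2 reached 1 in size (1.9%), those of miR-487b-3p against miR-487a-3p (-1.21) and miR-365b-5p against miR-365a-5p (-1.20). miR-27b-3p was among the values that led to the choice of the members, so its place beside this distribution is a description.

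Arms of a hairpin reached larger gaps. Over 397 pairs of a 3p and a 5p strand measured on both arrays the median size of the gap was 0.15, and 21 pairs (5.29%) reached 1. Only miR-23a among the members had both arms measured, with a gap of 0.25. No gap is given for miR-27b, miR-27a or miR-23b, whose 5p strands were below the limit on both arrays.

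**Figure D4:**
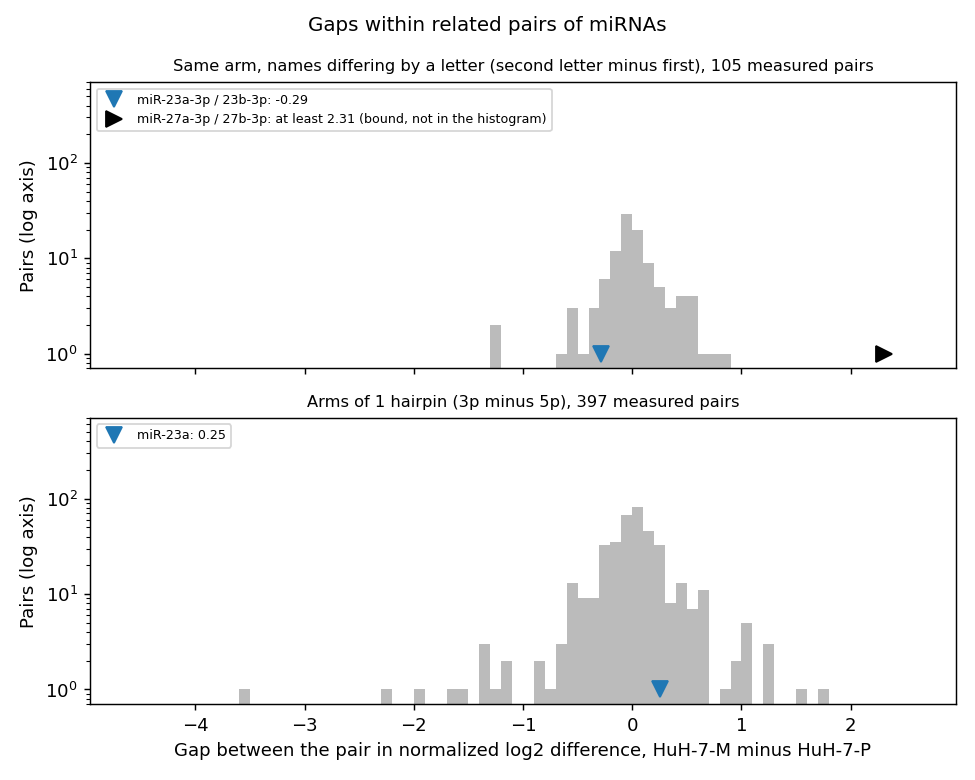
Histograms, with log counts, of the gap within a pair in normalized log2 difference (HuH-7-M over HuH-7-P), for 105 lettered pairs of the same arm (top, later letter minus earlier) and 397 pairs of arms of a hairpin (bottom, 3p minus 5p), each with both strands measured on both arrays. Blue triangles mark the member pairs, at -0.29 in the top histogram and 0.25 in the bottom one. The black triangle is the lower bound of 2.31 for the miR-27 pair, which is in neither histogram.

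Base composition went with detection on these arrays and differs between the members. Of the miRNA probes, 2253 had a mature sequence of the same name in RefSeq, all 10 members among them. Among 399 miRNAs with under 40% G and C, 7.02% were above background on HuH-7-M, against 8.02% on HuH-7-P. Among 649 with at least 60%, 96.1% were above background on HuH-7-M, against 96.3% on HuH-7-P. The members span 45.5% (miR-27b-5p) to 59.1% (miR-23a-5p). In that range 75.6% of 962 miRNAs were above background on HuH-7-M, against 75.8% on HuH-7-P, against 7 and 6 of the 10 members.

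Within the members, the 5p strand with the highest G and C content, miR-23a-5p, was also the brightest 5p spot. The other 5p strands did not all follow that order. miR-27a-5p, with the next highest share, was below the limit on both arrays, as was miR-27b-5p, with the lowest. miR-24-2-5p and miR-23b-5p have the same share, and only miR-24-2-5p was above the limit, on both arrays. miR-27a-3p (52.4%) and miR-27b-3p (47.6%) differ by the base at position 19, and the difference between the arrays was seen at the strand with less G and C. Levels of different probes depend on each probe's own binding, and the part of base composition in the members' levels was not tested. The median normalized log2 difference between the arrays lay between 0.00 and 0.03 in each of 4 bins of G and C content.

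**Figure D5:**
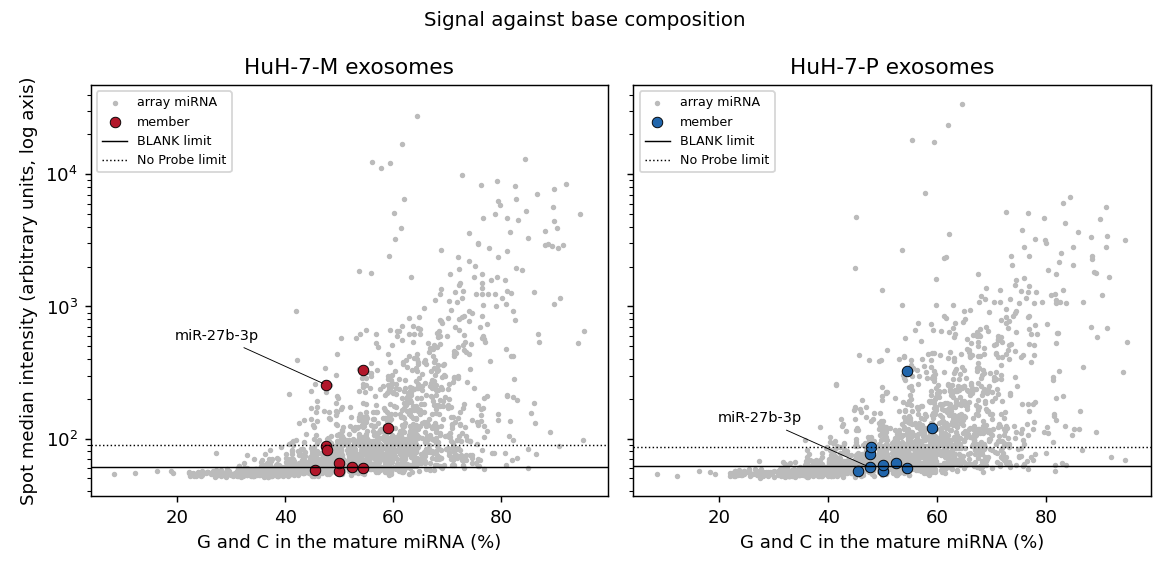
Spot median intensity (arbitrary units, log axis) against the share of G and C in the mature miRNA (%), for 2253 miRNAs with a RefSeq sequence (grey, jittered sideways) and the 10 members (coloured), on the HuH-7-M array (left) and the HuH-7-P array (right). Lines are the BLANK limit (solid) and the No Probe limit (dotted). Signals are higher at high G and C, and miR-27b-3p is at 255.5 on HuH-7-M, against 60.71 on HuH-7-P.

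The miRNAs whose signals on the 2 arrays were nearest to those of the 3 brightest members were found by distance in normalized log2 signal. Nearest to miR-24-3p were miR-3162-5p, miR-6735-5p and miR-6812-5p, at distances of 0.03 to 0.05. Nearest to miR-23a-5p were miR-766-3p, miR-4278 and miR-4436b-5p, also within 0.05. miR-27b-3p had no such close neighbour. The nearest, miR-4800-3p, read 189.3 on HuH-7-M, against 88.05 on HuH-7-P, at a distance of 0.74. It was followed by miR-1197 (137.3 on HuH-7-M, against 54.74 on HuH-7-P, distance 0.95) and miR-619-5p (164.4 on HuH-7-M, against 96.06 on HuH-7-P, distance 0.97). With 2 arrays such likeness describes brightness and direction only.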

How the data were processed

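The deposited scanner output of the authors holds a Cy5 intensity, the spot median per the file headers, for each of 3200 spots per array, with no background subtracted (BLANK spots average near 59), and a second intensity column headed as background median. Per the labels' protocols, RNA was labelled with Cy5 by the 3D-Gene kit. The authors' deposited table of scaled intensity values matched, for all 10 members, the spot median minus the trimmed BLANK mean, divided by the median of the detected miRNAs and multiplied by 25 (relative tolerance 1e-05). Scanner and table software are not given in the sources used here.

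Background was corrected with nec (normexp on BLANK spots, offset 50) and arrays were quantile normalized over the miRNA probes in limma 3.58.1 (R 4.3.3). The step was also run on simulated data drawn from the HuH-7-P signals. That simulation added no stray spots and no difference between arrays, so it cannot speak to either. Differences are HuH-7-M minus HuH-7-P, with 2-fold as the size threshold and no test at 1 array per group. The text names all 10 members, array miRNAs that share a member's seed, 6 locus neighbours, and the 3 nearest profiles of each member over the No Probe limit. Other miRNAs are named as array-wide extremes or adjoining spots, and S-Probe controls as measures of spread, all picked after their values were seen. Pairs of strands were limited to measured ones after the values were seen. Alternatives were 14 settings of background, scaling, filter, limit and source of values, and 1 added later. Members and lists were chosen with earlier results of these data known.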

Additional observations from a re-analysis of the deposited data

How the results depend on the processing

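No paired analysis was possible because each group has 1 array. Subtracting the BLANK mean with no offset (quantile normalized or unscaled), as in the authors' values, 1 measured member in place of 0 passed 2-fold downward on HuH-7-M, miR-27a-3p. Without a filter on dim probes 1 member in place of 0 was at least 2-fold higher, miR-27b-3p. Scaling to the Spike Control spots put the members' median at -0.565, and under the other alternatives it stayed between 0.00 and 0.06. On that scale miR-23a-3p was -0.34 and the other 5 measured members lay between -0.67 and -0.51. With the BLANK mean subtracted, no offset and quantile normalization, miR-23a-3p was 0.82, against 0.25 in the main setting. Likewise miR-24-2-5p was 0.91, against 0.08. Under the No Probe limit 3 members on HuH-7-M, against 2 on HuH-7-P, were above background. Under a BLANK limit with no spots left out, 6 members, against 6, were above it, miR-27a-3p dropping below on HuH-7-M. The log2 bound of miR-27b-3p was 2.23, and 1.64 or more under the 12 of 14 alternatives fixed first that gave a bound (without a filter there is none, and the untrimmed limit was applied to counts only), with 1.69 against the No Probe limit and 6.27 with the BLANK mean subtracted. It was 0.10 with the background column. miR-27a-3p and miR-24-2-5p lost their measured status at the BLANK mean plus 3 SD. Signal close to background limits what can be said of them and of the undetected 5p strands.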
